A study of Hordeum vulgare with 18 samples.

Results

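This account describes 235 genes from 1 stretch of barley (Hordeum vulgare) chromosome 6H, of 13626 genes in the table. Members were selected on their row identifiers, HORVU6Hr1G followed by a number from 015000 to below 038000, and on a sum of at least 180 counts over the 18 libraries. Of 364 genes in that range of numbers, 235 reached the sum and 129 did not, and all 235 passed the filter on low counts used in the tests. Just below the minimum were HORVU6Hr1G019700 and HORVU6Hr1G033320 with 171 counts each, and just above it HORVU6Hr1G025670 with 180 and HORVU6Hr1G033580 with 181. The stretch itself was chosen from earlier results of the same libraries, in which genes that differed between the lines were frequent on this chromosome. The line differences below are therefore a description of the stretch and are not independent support for it.

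Flag leaves of the cultivar Karl and of 10_11, which is known to be near-isogenic to Karl, were taken 7, 14 and 21 days post anthesis from glasshouse plants, with 3 libraries for each line and day. Each library came from a pool of 10 or more leaves, and no treatment separated the groups. RNA was counted by MARS-seq, which sequences tags from transcript 3' ends. Near-isogenic lines share most of a genome and differ in segments retained from a donor parent, so neighbouring genes in such a segment can carry donor alleles together. The flag leaf is the last leaf below the ear. While it senesces its photosynthetic proteins are broken down and nitrogen is moved to the grain, and the short arm of barley chromosome 6H is known to hold a locus for grain protein content at which a NAC transcription factor gene acts on leaf senescence. The sources used here pair the identifiers with no names, so members are given by identifier and no role is assigned to any of them.

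The libraries held 353982 to 947762 counts at day 7 and 1058777 to 3231258 at day 14 and day 21. The day 7 libraries also carry another numbering style (1 to 3 in place of A to C), so age cannot be told apart from depth and from whatever that style marks. The library labelled 10_11 day 14 replicate C goes against its label at most, but not all, members that differed between the lines. Among the 10 members called between the lines in a fit to the day 7 and day 21 libraries, its level was nearer to the Karl day 14 mean than to the mean of 10_11 replicates A and B in 10 of 10 and within the Karl range in 3. In fits that held day 14, and so this library, some called members went the other way. It was nearer to 10_11 at HORVU6Hr1G018610, HORVU6Hr1G019510 and HORVU6Hr1G035640. It was kept as labelled, and results that rest on it are also given without it. Levels are CPM, counts relative to library totals that were scaled by TMM. The TMM factors were 0.779 to 0.911 at day 7 and 1.00 to 1.21 at day 14 and day 21. Small changes from day 7 therefore depend on this scaling. They are tag counts per transcript end and are not compared between genes as amounts of protein or activity. In such bulk tissue, fewer cells of a type and less RNA per cell cannot be told apart.

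Averaged over the 3 days, 9 members were higher and 5 lower in 10_11 than in Karl by edgeR's quasi-likelihood test (Benjamini-Hochberg adjusted p under 0.05 over all 9973 tested genes, here termed called). That is 5.96% of the 235 members. Of all tested genes 1.29% were called, and of the 8856 tested genes with 180 counts or more 1.22%. The differences of the called members ran from -2.23 to 8.17 on the log2 scale (10_11 over Karl), while most of the stretch differed little. The median log2 fold change of the members was -0.03 and that of all tested genes -0.01. An averaged difference of at least 2-fold in either direction was found for 16 members (6.81%) and for 2.54% of the tested genes with 180 counts or more.

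The called members are given by windows of the identifiers, whose numbers run in the order of the genes on the chromosome. No test was made between windows, so the counts do not show whether the calls were spread unevenly. In the window 015000 to below 020000, 7 of 55 members were called, 4 higher and 3 lower in 10_11. None of 40 was called from 020000 to below 025000, where 8 members had an unadjusted p under 0.05. In that window HORVU6Hr1G020750 and HORVU6Hr1G021460 were called without replicate C, as given below. From 025000 to below 030000 2 of 46 were called, from 030000 to below 035000 3 of 66 and from 035000 to below 038000 2 of 28. Called genes were also found beyond the upper end. In the next stretch, 038000 to below 061000, 8 of 199 genes with 180 counts or more were called (4.02%), and from 061000 up on chromosome 6H 17 of 443 (3.84%). Below 015000 edgeR called 0 of 140, with 19 at an unadjusted p under 0.05. The share of all tested genes at that unadjusted cut is not given here. On the other chromosomes and among unplaced genes 69 of 7839 were called (0.88%). The members at the ends, HORVU6Hr1G015050 and HORVU6Hr1G037940, had averaged log2 fold changes of -0.16 and 0.13 (edgeR adjusted p = 0.731 and 0.739).

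**Figure D1:**
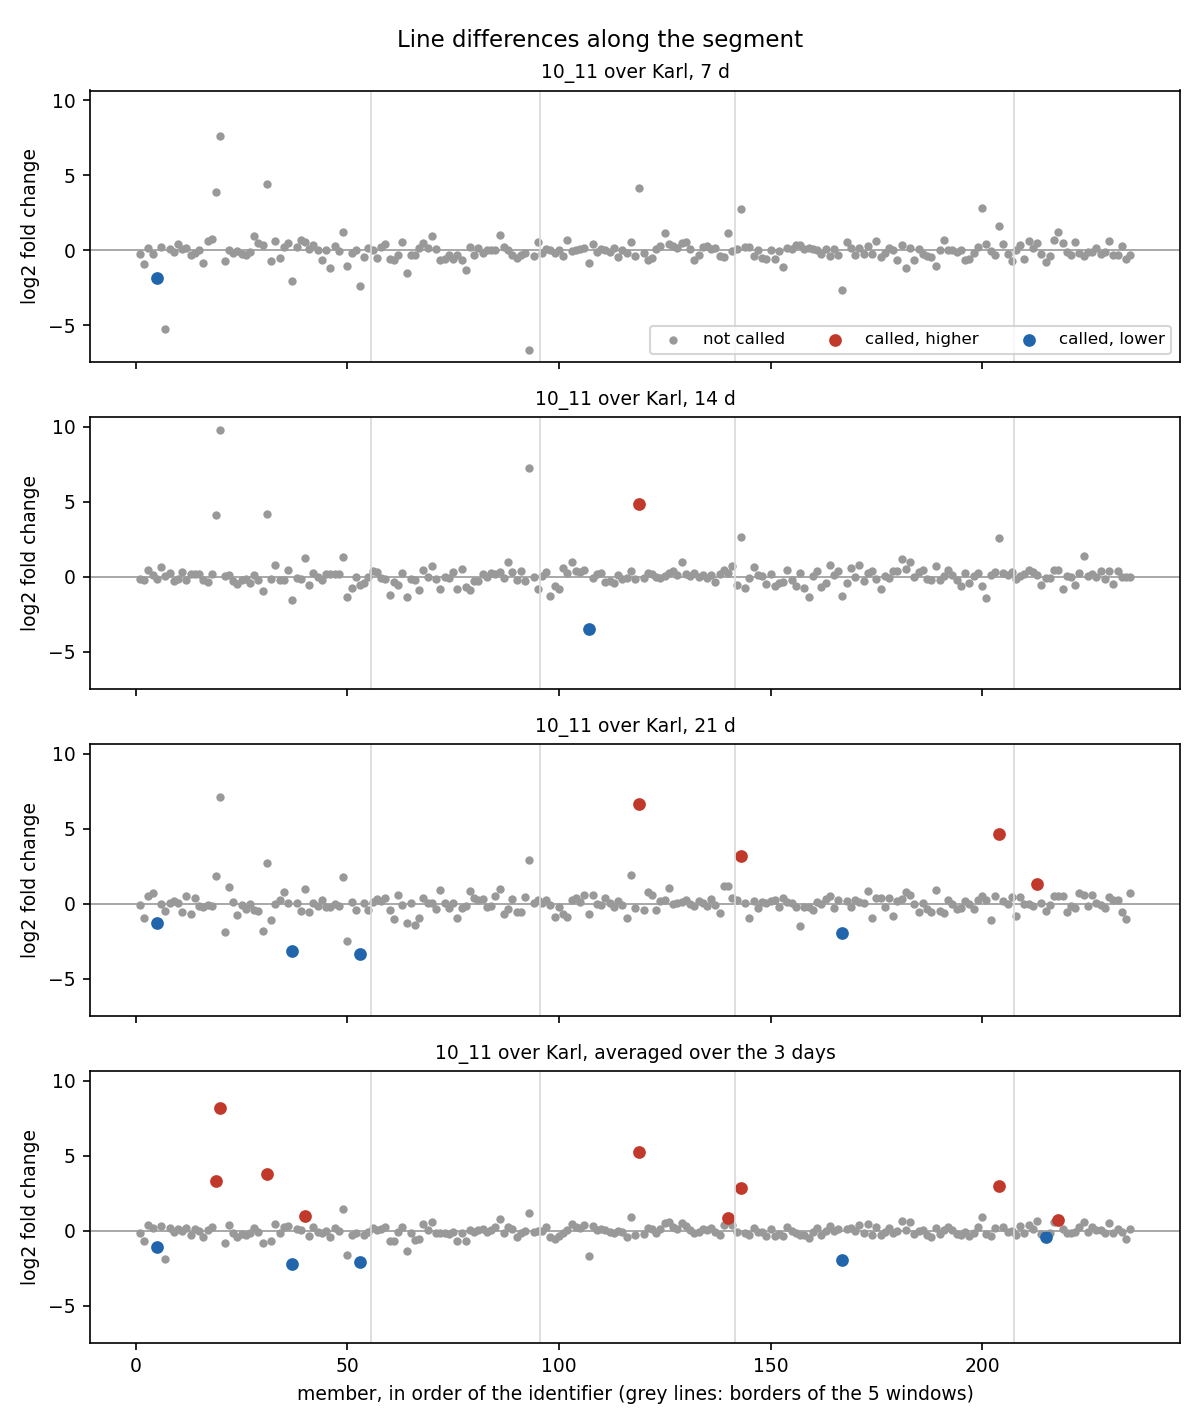
Line difference of each member along the identifier order, as log2 fold change of 10_11 over Karl at each day and averaged over days, with called members marked. Most points lie near 0, and the called members lie on both sides of 0, with 7 of the 14 averaged calls in the first window.

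Fewer members were called on single days, each with 3 libraries against 3. At day 7 1 member was called, lower in 10_11, against 0.0602% of all tested genes. At day 14 1 was higher and 1 lower, against 0.0501%, and at day 21 4 were higher and 4 lower, against 1.01%. The single call at day 7 was lost without replicate 1 or 3 of either line at that day. At day 14 the count was 0 with Karl replicate A, Karl replicate C, 10_11 replicate A or 10_11 replicate B left out, and 1 without Karl replicate B. At day 21 it was 3 without Karl replicate B and 17 without 10_11 replicate B. For these fits the shares of all tested genes are not given here. The shifts are therefore not read as particular to the stretch.

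Without the library labelled 10_11 day 14 replicate C the counts were larger on each day, also at day 7 and day 21, whose groups do not hold it. All libraries enter 1 fit, and why these counts moved was not tested. At day 7 4 members were then higher and 6 lower, against 0.414% of all tested genes, and at day 14 8 were higher and 5 lower, against 3.0%. At day 21 6 were higher and 4 lower, against 1.42%, and averaged over days 11 were higher and 7 lower, against 2.28%. Of those 18 members, 13 were also called with all libraries. On at least 2 days 11 members were called without replicate C and 2 with it, and on all 3 days 6 and 0. How many of all tested genes were called on several days is not given here. Calls over the whole table also rose on each day, so this increase is not read as particular to the stretch.

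The widest averaged line difference of the stretch was that of HORVU6Hr1G016890, and its neighbour by number, HORVU6Hr1G016880, was also higher in 10_11. HORVU6Hr1G016890 had 956, 665 and 522 CPM in the 10_11 libraries of day 7, and 1.36, 7.39 and 3.10 CPM in those of Karl. In 10_11 it fell to 133 and 87.0 CPM in replicates A and B of day 14, with 0.393 CPM in the library labelled replicate C, and to 4.39, 27.5 and 3.01 CPM at day 21. Karl had 0 counts in its 6 libraries of day 14 and day 21. The groups did not overlap on any day, although the lone count in replicate C left it close to Karl. Against a floor of 3 counts over the Karl group the level was at least 155-fold higher in 10_11 at day 14, at least 230.2-fold without replicate C, and at least 22.5-fold higher at day 21. Averaged over days the log2 fold change was 8.17 (SE 1.08, edgeR adjusted p = 0.000834), a fitted value that depends on the prior count where Karl is at 0.

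HORVU6Hr1G016880 had 80.7, 54.5 and 54.9 CPM in 10_11 at day 7 against 1.36, 5.54 and 6.20 CPM in Karl. At day 14 its level was 15.1 CPM in both replicates A and B but 0.787 CPM in the one labelled replicate C, against 0.930, 0.451 and 0 CPM in Karl. At day 21 10_11 had 0, 11.3 and 3.01 CPM and Karl 0, 2.52 and 0.554 CPM. The lines were apart at day 7, apart at day 14 except for replicate C, and overlapped at day 21. Its averaged log2 fold change was 3.30 (SE 0.61, edgeR adjusted p = 0.00699), 3.90 without Karl day 21 replicate B and no longer called without 10_11 day 21 replicate B (adjusted p = 0.052). Whether reads are shared between these 2 neighbours, or between either of them and another copy, was not tested.

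Other members had a high level in 10_11 and a low one in Karl on every day. HORVU6Hr1G028590 had 48.4, 49.4 and 41.2 CPM in 10_11 at day 7, 84.0, 98.3 and 4.33 CPM at day 14 (replicates A, B and C) and 138, 162 and 165 CPM at day 21. No Karl library exceeded 3.75 CPM, and on no day did the lines overlap. The averaged log2 fold change was 5.21 (SE 0.51, edgeR adjusted p = 2.97e-05). It was the only member called higher on 2 days, with 4.86 at day 14 (SE 0.81, adjusted p = 0.0327) and 6.64 at day 21 (SE 0.85, adjusted p = 0.00133). The day 14 call was lost without any other day 14 library than replicate C (adjusted p 0.0519 to 0.316), and the day 21 value was 7.74 without Karl replicate A.

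HORVU6Hr1G034760 had 38.3, 55.8 and 65.2 CPM in 10_11 at day 7 against 13.6, 9.23 and 27.9 CPM in Karl. It had 41.9, 31.3 and 3.93 CPM in 10_11 at day 14 against 5.58, 1.80 and 5.82 CPM, and 111, 116 and 105 CPM at day 21 against 7.51, 3.23 and 2.77 CPM. The lines were apart on each day except that replicate C lay within Karl's range. On average the log2 fold change was 2.94 (SE 0.36, edgeR adjusted p = 0.00013) and that at day 21 4.65 (SE 0.61, adjusted p = 0.00133).

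HORVU6Hr1G018030 had 46.4, 49.4 and 37.8 CPM in 10_11 at day 7, 33.4, 25.4 and 1.18 CPM at day 14 and 15.8, 19.4 and 16.2 CPM at day 21, while Karl held 0 to 4.07 CPM throughout. Only replicate C lay among the Karl libraries of its day. Over the days the log2 fold change averaged 3.78 (SE 0.49, edgeR adjusted p = 0.000248). With all libraries it was called on no single day (adjusted p = 0.109, 0.0707 and 0.0842), and without replicate C on all 3 (0.000146, 6.31e-06 and 0.000905).

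HORVU6Hr1G030050 was lower in level, with 18.2, 10.1 and 17.2 CPM in 10_11 at day 7, 11.1, 16.7 and 2.75 CPM at day 14 and 27.2, 34.0 and 22.3 CPM at day 21. Karl held 0.646 to 5.63 CPM and did not overlap with 10_11 on any day. Its averaged log2 fold change was 2.86 (SE 0.38, edgeR adjusted p = 0.000248), and at day 21 it was 3.17 (SE 0.52, adjusted p = 0.00641). The latter was lost without Karl day 21 replicate B (0.0653) and was 3.75 without Karl day 21 replicate A.

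The other members higher in 10_11 differed by about 2-fold or less on average. HORVU6Hr1G018610 had 14.6 to 16.9 CPM in 10_11 against 7.20 to 8.26 CPM in Karl at day 21, also did not overlap at day 14 and overlapped at day 7 (averaged log2 fold change 0.94, SE 0.17, edgeR adjusted p = 0.00659). HORVU6Hr1G035640 had 75.5 to 139 CPM against 41.8 to 49.9 CPM at day 7, and the lines overlapped only at day 21 (0.74, SE 0.14, adjusted p = 0.0105). HORVU6Hr1G029810 was apart at day 7 and day 21 and overlapped at day 14 (0.86, SE 0.20, adjusted p = 0.0388). Its call was lost when any of 12 of the 18 libraries was left out, with an adjusted p of up to 0.131.

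HORVU6Hr1G035370 was called at day 21 alone. It had 137, 133 and 122 CPM in 10_11 then, against 47.5, 55.0 and 52.1 CPM in Karl, which is 1.34 on the log2 scale (SE 0.24, edgeR adjusted p = 0.0107). At day 7 and day 14 the lines overlapped, with log2 fold changes of 0.49 and 0.16. The call was lost without Karl day 21 replicate A or B (adjusted p = 0.0587 and 0.0653).

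In all 5 members were lower in 10_11 on average, of which 4 differed by more than 2-fold. HORVU6Hr1G018520 had 96.3, 131 and 96.1 CPM in Karl at day 7, 111, 97.9 and 103 CPM at day 14 and 137, 135 and 103 CPM at day 21. In 10_11 it had 24.2, 29.1 and 24.0 CPM, then 23.8, 11.3 and 71.6 CPM, then 14.9, 17.0 and 11.4 CPM. The lines did not overlap on any day, and the library labelled replicate C, at 71.6 CPM, was the closest to Karl. The averaged log2 fold change was -2.23 (SE 0.25, edgeR adjusted p = 8.33e-05), and at day 21 it was -3.12 (adjusted p = 0.00229).

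HORVU6Hr1G019760 fell with age in both lines and was lower in 10_11 at each stage. Karl had 462, 528 and 370 CPM at day 7, 232, 272 and 198 CPM at day 14 and 69.4, 95.2 and 124 CPM at day 21. In 10_11 it had 84.7, 76.0 and 103 CPM, then 66.3, 38.3 and 369 CPM, then 8.79, 4.85 and 13.8 CPM. Replicate C of day 14 was above every Karl library of that day, and elsewhere the lines were apart. The averaged log2 fold change was -2.10 (SE 0.34, edgeR adjusted p = 0.00197), and that at day 21 was -3.34 (adjusted p = 0.0162). The day 21 call was lost without Karl day 21 replicate B or C or 10_11 day 21 replicate A (0.0557 to 0.0712).

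HORVU6Hr1G015430, close to the lower end of the stretch, was the 1 member called at day 7. It then had 28.2, 38.0 and 27.5 CPM in 10_11 and 132, 92.3 and 133 CPM in Karl, a log2 fold change of -1.89 (edgeR adjusted p = 0.00695). At day 14 it had 54.5, 58.3 and 83.8 CPM against 68.8, 69.9 and 80.1 CPM, and replicate C alone lay above Karl. At day 21 it had 41.3, 26.7 and 28.9 CPM against 83.8, 80.1 and 76.5 CPM, a log2 fold change of -1.32 (adjusted p = 0.00934; 0.0592 without Karl day 21 replicate B). The averaged value was -1.12 (SE 0.14, adjusted p = 0.00013).

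HORVU6Hr1G032570 had 17.0 to 33.2 CPM in the 9 Karl libraries. In 10_11 it had 0, 6.34 and 3.43 CPM at day 7, 7.83, 5.94 and 16.1 CPM at day 14 and 6.15, 4.85 and 8.43 CPM at day 21. The lines did not overlap on any day, and replicate C was again the 10_11 library nearest to Karl. On average the log2 fold change was -1.95 (SE 0.27, edgeR adjusted p = 0.000356). The day 21 value, -1.98 (adjusted p = 0.0252), lost its call without any Karl day 21 library or 10_11 day 21 replicate A (0.0542 to 0.0865).

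HORVU6Hr1G035520 differed least, by -0.46 (SE 0.11, edgeR adjusted p = 0.0491), and lost its call when any of 17 of the 18 libraries was left out (adjusted p up to 0.121). HORVU6Hr1G026370 was called at day 14 alone, with 2.41, 2.16 and 9.05 CPM in 10_11 against 64.6, 15.3 and 79.5 CPM in Karl. The log2 fold change was -3.50 (SE 0.62, edgeR adjusted p = 0.0447), and -4.46 without replicate C. At day 7 and day 21 the lines overlapped. The day 14 call was lost when Karl replicate A or C was left out, and likewise for 10_11 replicate A or B (0.228 to 0.368).

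**Figure D2:**
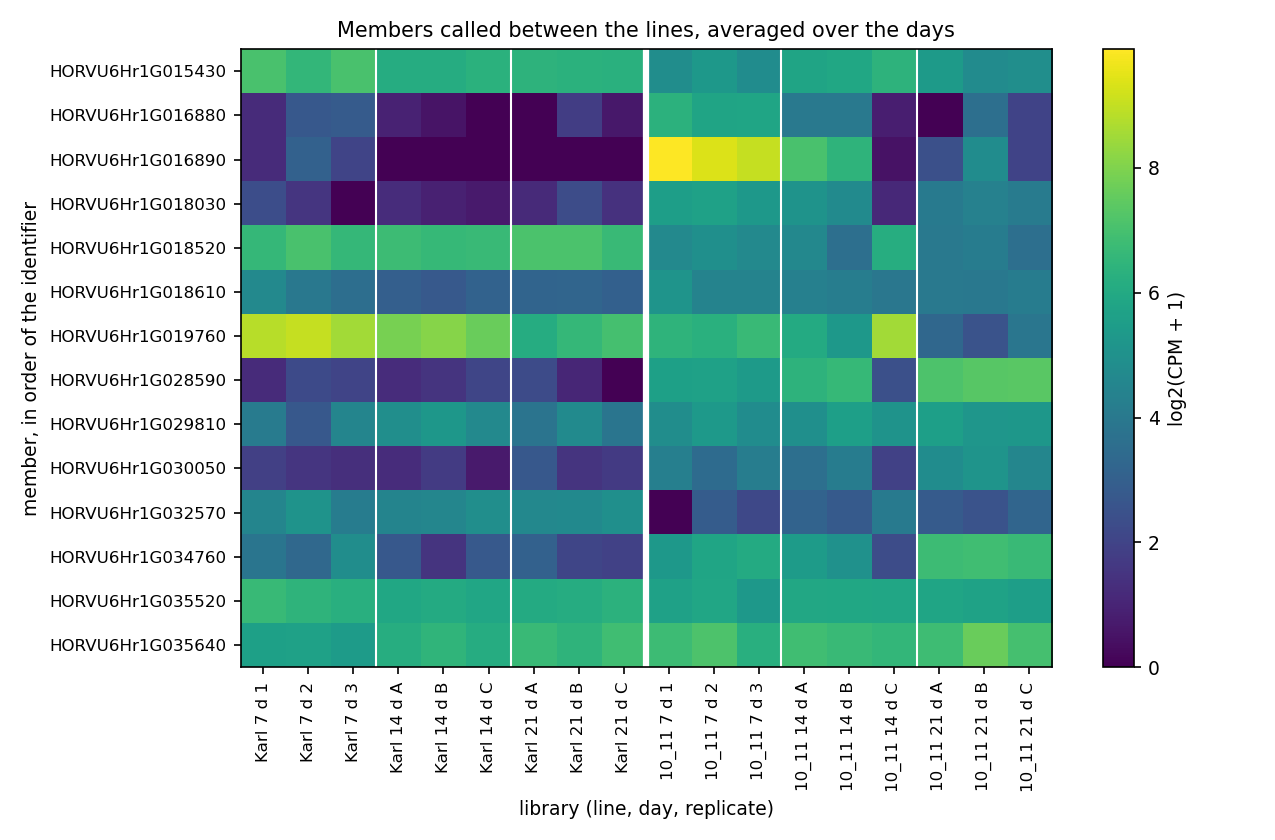
Level of the 14 members called between the lines averaged over the days (rows, in identifier order) in each of the 18 libraries (columns), as log2 of CPM plus 1. In most rows the library labelled 10_11 day 14 replicate C has the colour of the Karl libraries and not that of replicates A and B.

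**Figure D3:**
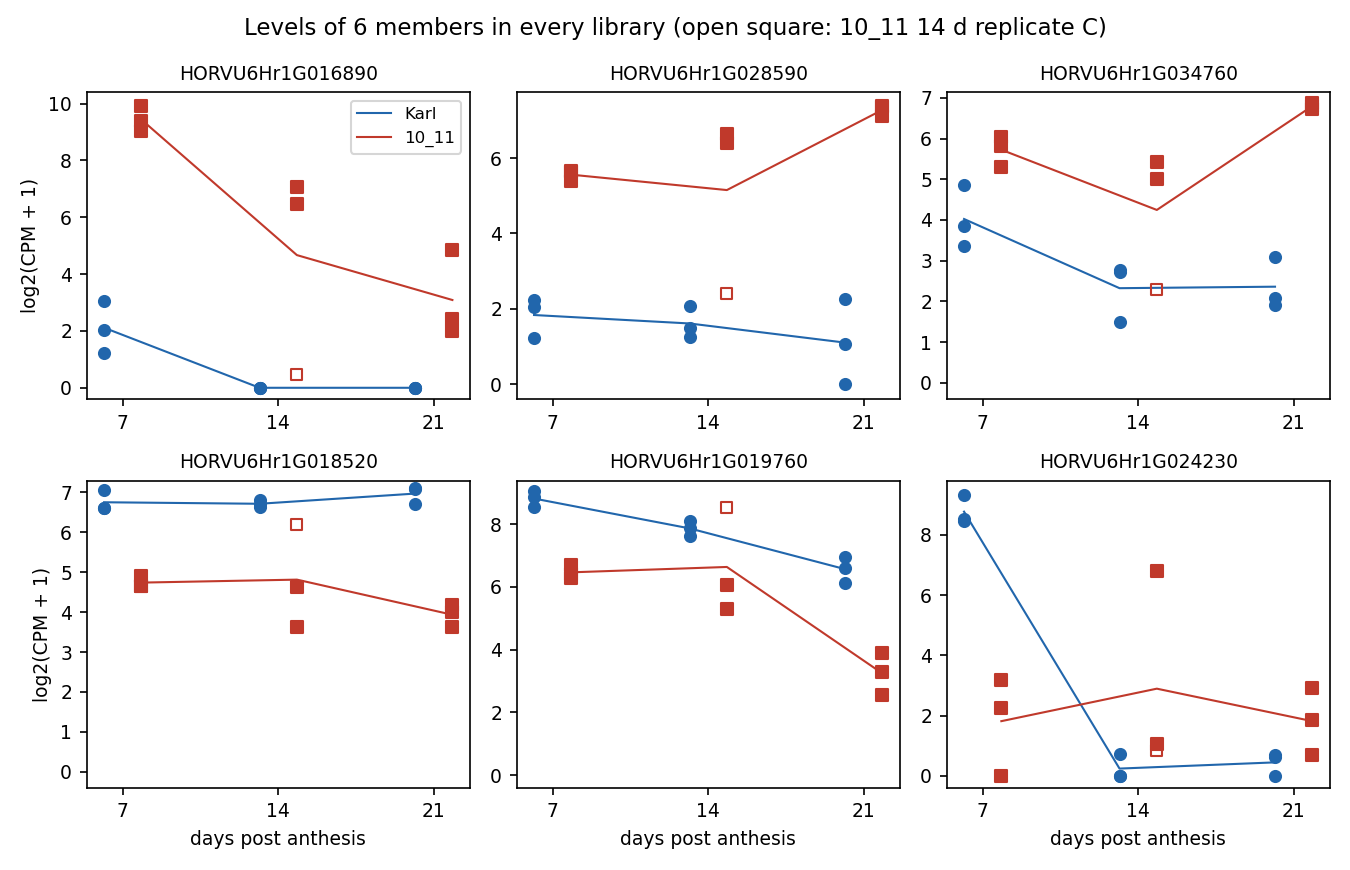
Log2 of CPM plus 1 by day for some of the members named in the text. Each point is 1 library, and lines join the group means of these log2 values. An open square marks the library labelled 10_11 day 14 replicate C, which the day 14 mean of 10_11 includes. HORVU6Hr1G016890 falls in 10_11 from 522 to 956 CPM at day 7 to 3.01 to 27.5 CPM at day 21, while HORVU6Hr1G028590 reaches 138 to 165 CPM at day 21.

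Of the 14 members called on average, 11 kept the call when each of the 18 libraries was left out in turn. The exceptions were HORVU6Hr1G016880, HORVU6Hr1G029810 and HORVU6Hr1G035520. DESeq2, with 13614 genes tested, called 20 members, among them all 14. The share that DESeq2 called over all genes is not given here, so the larger count is not read as a result about the stretch.

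The left-out day gave a view of the same members in libraries that had not chosen them, though the stretch itself had been chosen on all days. It is a description and gives no independent support. Members already called on 2 days are a selected set, so the shares of all tested genes below are not a matched comparison. Over the whole table the fits that left out day 7, day 14 and day 21 called 91, 67 and 47 genes. Their overlap on the left-out day is not given here. A fit to the day 14 and day 21 libraries called 10 members between the lines. At day 7 10 of 10 had the same sign and 7 did not overlap in that direction, where 9.2% of all tested genes did not overlap in either direction. A fit to the day 7 and day 21 libraries also called 10. At day 14 10 of 10 had the same sign and 5 did not overlap, against 21.1% of all tested genes, and without replicate C 10 of 10 did not overlap, against 38.9%. Those 10 are the members at which replicate C was found nearer to Karl. Leaving that library out could only reduce their overlap, so no conclusion is drawn from the count without it. Of 10 members called in a fit to day 7 and day 14, 9 had the same sign at day 21 and 7 did not overlap, against 18.6%. The exception in sign was HORVU6Hr1G031340. Over all 235 members 35 did not overlap in either direction at day 7, 56 at day 14, 106 at day 14 without replicate C and 60 at day 21.

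Some members were called between the lines only without replicate C, and those named here were chosen after their values were seen. HORVU6Hr1G020750 had 39.3, 86.8 and 43.4 CPM in Karl at day 7 against 20.2, 12.7 and 30.9 CPM in 10_11. At day 14 it had 140, 136 and 87.9 CPM against 16.6, 10.8 and 118 CPM, and at day 21 51.9, 123 and 63.7 CPM against 29.9, 48.5 and 19.3 CPM. Only replicate C lay among the Karl libraries. Over the days the log2 fold change averaged -1.38 with all libraries (SE 0.40, edgeR adjusted p = 0.115) and -1.98 without replicate C (SE 0.26, adjusted p = 0.000115). The other members called on average only without it were HORVU6Hr1G019480 (1.54, adjusted p = 0.0206), HORVU6Hr1G019510 (-1.69, 0.0457), HORVU6Hr1G021460 (-0.86, 0.0203) and HORVU6Hr1G035610 (0.63, 0.00958). With HORVU6Hr1G020750 and HORVU6Hr1G021460, members from 020000 to below 025000 joined those called.

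HORVU6Hr1G024230 had a lower level in 10_11 than in Karl at day 7 and a higher mean level at day 14. With all libraries edgeR called it between the lines on no single day. It had 353, 369 and 642 CPM in Karl at day 7 against 8.07, 3.80 and 0 CPM in 10_11. At day 14 Karl had 1 count in all, in replicate C (0.646 CPM), while 10_11 had 110 CPM in replicate A, 1.08 in replicate B and 0.787 in the library labelled replicate C. At day 21 the lines had 0.626, 0 and 0.554 CPM and 2.64, 6.47 and 0.602 CPM. The high 10_11 level at day 14 thus came from 1 library, and at day 7 the lines were far apart. The lines' changes from day 7 to day 14 differed by 13.91 (10_11 minus Karl, SE 2.16, edgeR adjusted p = 0.042). It was the 1 member so called, against 0.01% of all tested genes. That difference was 8.60 without 10_11 day 14 replicate A (adjusted p = 0.611), 14.61 without 10_11 day 7 replicate 1 and 15.53 without Karl day 14 replicate C. The call was kept only without 10_11 day 14 replicate B or C among the 12 libraries of these groups. The fitted values depend on the prior count, since Karl at day 14 had 1 count.

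For the other 2 intervals edgeR called 0 members, against 0.0% of all tested genes in each. From day 14 to day 21 33 members were at an unadjusted p under 0.05, while DESeq2, with 4376 genes tested, called 3. From day 7 to day 21 there were 20 such members, while DESeq2, with 3056 genes tested, called 1. From day 7 to day 14 17 members had an unadjusted p under 0.05. The shares of all tested genes at that cut, and of those called by DESeq2, are not given here. These counts are therefore not read as line differences of the stretch. Changes with age are given below for each line, and a call in Karl alone or in 10_11 alone does not show that the lines differ.

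With age the stretch gave a smaller share of each library's counts, 2.75% to 3.11% at day 7, 2.01% to 2.25% at day 14 and 1.67% to 2.11% at day 21 over both lines. A few abundant members moved with this share. The 5 with the highest mean level made up 64.3% to 68.5% of the stretch's counts at day 7 and 30.1% to 47.8% at day 21. The median member had a mean of 20.4 CPM over the libraries, 30 members had at least 100 CPM and 42 under 10 CPM.

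HORVU6Hr1G033160, the most abundant member, had 10836, 9895 and 13351 CPM in Karl at day 7, 4307, 5291 and 4385 CPM at day 14 and 3157, 5118 and 3223 CPM at day 21. In 10_11 it had 13362, 10443 and 10876 CPM, then 5410, 7075 and 5628 CPM, then 2033, 2908 and 1607 CPM. Libraries of day 7 and day 21 did not overlap in either line. From day 7 to day 21 it fell by 1.57 on the log2 scale in Karl (edgeR adjusted p = 0.000278) and by 2.41 in 10_11 (adjusted p = 2.97e-06).

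HORVU6Hr1G015770 had 12204, 7817 and 10157 CPM in Karl at day 7 and 1077, 1817 and 1079 CPM at day 21. In 10_11 it had 11544, 9482 and 10416 CPM at day 7 and 623, 1709 and 441 CPM at day 21. It fell by 2.92 in Karl (edgeR adjusted p = 6.53e-05) and by 3.50 in 10_11 (adjusted p = 6.61e-06; 4.29 without 10_11 day 21 replicate B, the highest of its group). At day 14, with 2020 to 2222 CPM in Karl and 2064 to 3348 CPM in 10_11, most of the fall had already occurred in both lines.

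The other 3 abundant members changed little, and changes of that size depend on the TMM scaling. HORVU6Hr1G035260 fell by 0.87 in 10_11 (edgeR adjusted p = 0.00384) and by 0.61 in Karl (adjusted p = 0.04), the latter lost without any of 5 libraries (adjusted p up to 0.186). HORVU6Hr1G026200 rose by 0.86 in 10_11 (adjusted p = 0.00486), with 0.43 in Karl (0.152). HORVU6Hr1G026280 was not called in either line (0.04 and 0.50, adjusted p = 0.921 and 0.0666), and in 10_11 it was called without 10_11 day 21 replicate C (0.0355).

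From day 7 to day 21 23 members rose and 31 fell in Karl, 23.0% of them, against 21.2% of all tested genes. In 10_11 37 rose and 29 fell, 28.1% of them, against 29.0%. Among tested genes with 180 counts or more these shares were 22.5% and 30.7%. The shares of the stretch were thus close to those of the table. The Karl count was 35 without Karl day 21 replicate A, for which the share of all tested genes is not given here.

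In Karl 11 members rose and 14 fell from day 7 to day 14, against 10.6% of all tested genes. From day 14 to day 21 none rose and 3 fell, HORVU6Hr1G029800, HORVU6Hr1G030080 and HORVU6Hr1G032070, against 0.973%. In 10_11 5 rose and 7 fell from day 7 to day 14, against 2.43%, and 24 rose and 28 fell from day 14 to day 21, against 19.9%. Without the library labelled 10_11 day 14 replicate C the first 10_11 interval gave 1 rise and no fall, against 0.645%, and the second 24 rises and 21 falls, against 17.4%. The first Karl count of 25 was 12, 14, 14 and 13 without Karl day 7 replicate 1 or 3 or day 14 replicate A or C. The 3 falls of the second were 1 without day 14 replicate A and 0 without day 14 replicate B or C or day 21 replicate A or C. In 10_11 the first count of 12 was 2, 3 and 5 without day 7 replicates 1, 2 and 3 and 7 without day 14 replicate A or B. The second count of 52 was 26 without day 14 replicate A and 33 without day 14 replicate B. These counts with a Karl or other 10_11 library left out stand without the shares of all tested genes. Whether the whole table moved alike is thus not shown.

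Along the identifier order falls outnumbered rises in the first window in both lines. In Karl, but not in 10_11, they also did so over the stretch as a whole. From 015000 to below 020000, 3 members rose and 10 fell in Karl from day 7 to day 21, and 8 rose and 13 fell in 10_11. From 020000 to below 025000 3 rose and 4 fell in Karl, and 8 rose and 2 fell in 10_11. From 025000 to below 030000 7 rose and 5 fell in Karl and 9 and 4 in 10_11, and from 030000 to below 035000 7 rose and 9 fell in Karl and 7 and 7 in 10_11. In the last window 3 rose and 3 fell in Karl and 5 and 3 in 10_11. No test was made between windows. The split into rises and falls over all tested genes is not given here, so the counts are not read as particular to a window.

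**Figure D4:**
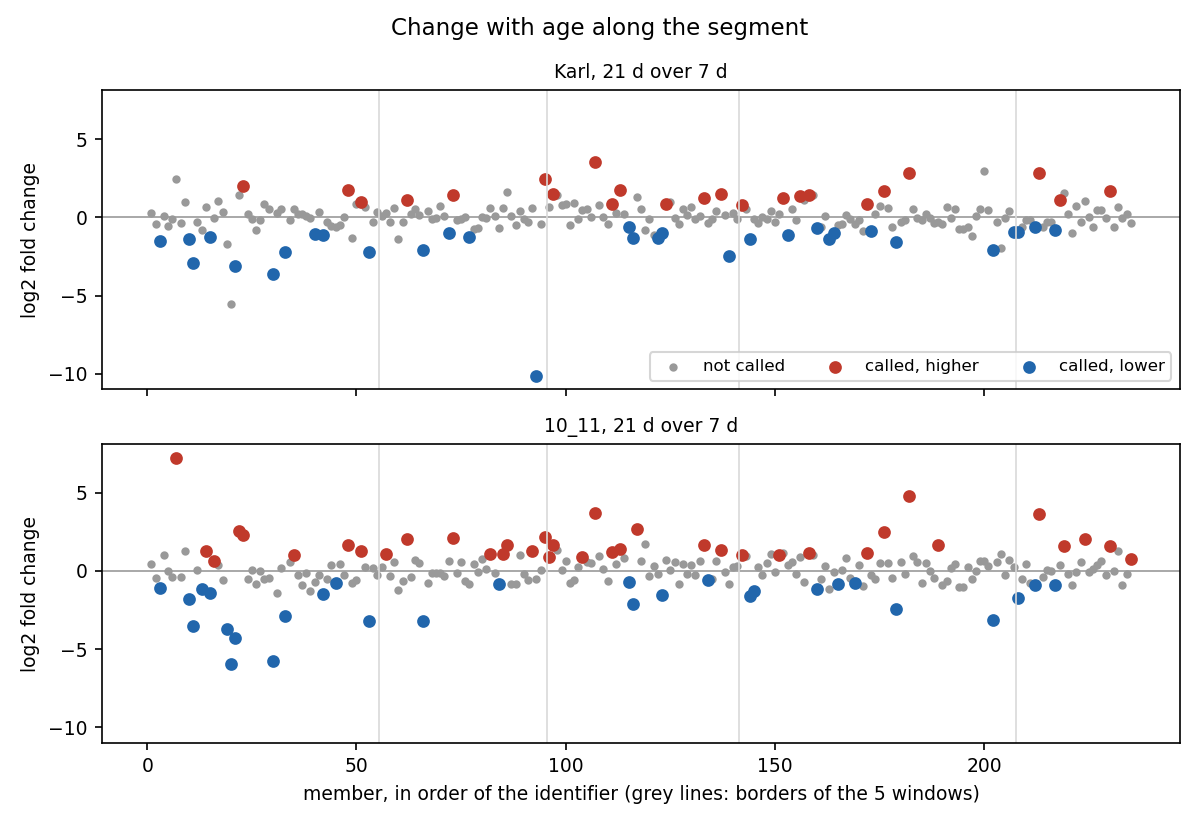
Log2 fold change from day 7 to day 21 of each member along the identifier order, in Karl and in 10_11, with called members marked. Rises and falls are interspersed along the stretch in both lines, with 10 of the 31 Karl falls and 13 of the 29 10_11 falls in the first window.

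Of the members called from day 7 to day 21, 19 rose in both lines, 20 fell in both and 0 were called in opposite directions. In Karl alone 4 rose and 11 fell, in 10_11 alone 18 rose and 9 fell, and 154 were called in neither. The same split over all tested genes is not given here, so that of the members is not read as a trait of the stretch. Without the library labelled replicate C 23 rose and 31 fell in Karl, against 20.8% of all tested genes, and 38 rose and 31 fell in 10_11, against 28.4%. Then 19 rose in both lines, 19 fell in both and 1 was called in opposite directions. That member, HORVU6Hr1G034760, fell by 1.96 in Karl (SE 0.47, edgeR adjusted p = 0.00675) and rose by 1.08 in 10_11 (SE 0.34, adjusted p = 0.0251). With all libraries its values were -1.96 and 1.07 (adjusted p = 0.0611 and 0.14). The difference of the lines' changes was 3.04 without replicate C and was not called (adjusted p = 0.277).

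Of the 3 largest rises in each line, among members whose higher day averaged 20 CPM or more and whose days did not overlap, 2 were of the same members. HORVU6Hr1G026370 rose in Karl from 5.42, 1.85 and 6.20 CPM to 56.3, 82.3 and 25.5 CPM, by 3.54 on the log2 scale (SE 0.78, edgeR adjusted p = 0.00348). In 10_11 it rose from 6.05, 1.27 and 0 CPM to 24.6, 51.8 and 28.3 CPM (3.73, SE 0.97, adjusted p = 0.00748), and the rise was 5.14 without 10_11 day 7 replicate 1 and not called without day 7 replicate 2 (0.0618). In Karl the level was already 15.3 to 79.5 CPM at day 14, and in 10_11 still 2.16 to 9.05 CPM.

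HORVU6Hr1G035370 rose in Karl from 4.07, 7.39 and 10.8 CPM through 32.5 to 46.5 CPM at day 14 to 47.5, 55.0 and 52.1 CPM (2.80, SE 0.34, edgeR adjusted p = 2.44e-05). In 10_11 it rose from 18.2, 6.34 and 6.87 CPM through 38.6 to 47.0 CPM to 137, 133 and 122 CPM (3.65, SE 0.33, adjusted p = 6.04e-07; 4.32 without day 7 replicate 1). No library of day 7 reached the level of any of day 21 in either line.

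HORVU6Hr1G024850 rose in Karl from 12.2, 12.9 and 4.65 CPM to 58.2, 65.0 and 36.6 CPM (2.43, SE 0.40, edgeR adjusted p = 0.000395). HORVU6Hr1G017080 rose in 10_11 from 16.1, 6.34 and 0 CPM to 58.0, 50.2 and 38.5 CPM (2.56, SE 0.51, adjusted p = 0.00104; 3.44 without day 7 replicate 1). Each was the third largest rise in its line by the rule used, and in each the days did not overlap.

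By that rule the largest falls in Karl were those of HORVU6Hr1G024230, HORVU6Hr1G017920 and HORVU6Hr1G016940. HORVU6Hr1G024230 went from 353, 369 and 642 CPM to 0.626, 0 and 0.554 CPM, or 1405-fold down (95% counting interval 388 to 11620, edgeR adjusted p = 0.000206), and was already at 1 count in the 3 libraries of day 14. Its fitted log2 fold change was -10.12, and -9.39 without Karl day 21 replicate B. In 10_11, which began at 0 to 8.07 CPM, the same interval gave no call (adjusted p = 0.881).

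HORVU6Hr1G017920 had 12.2, 81.3 and 17.0 CPM in Karl at day 7 and 2.50, 5.03 and 0 CPM at day 21, which is -3.63 on the log2 scale (SE 0.83, edgeR adjusted p = 0.00463). The value was -2.35 without Karl day 7 replicate 2, the library at 81.3 CPM, and was then not called (0.0738). Without Karl day 21 replicate B it was -4.80. In 10_11 it had 28.2, 40.6 and 72.1 CPM at day 7 and 1.76, 0 and 0.602 CPM at day 21, or 57.2-fold down (95% counting interval 18.7 to 284, adjusted p = 0.000715). The fitted value there was -5.76, and -6.71 without 10_11 day 21 replicate A.

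HORVU6Hr1G016940 fell in Karl from 431, 338 and 552 CPM at day 7 to 62.8, 37.4 and 62.7 CPM at day 14 and 28.2, 93.8 and 27.7 CPM at day 21 (-3.12, SE 0.51, edgeR adjusted p = 0.00039; -3.97 without day 21 replicate B). In 10_11 it fell from 329, 241 and 220 CPM to 68.7, 61.6 and 38.2 CPM and then to 2.64, 29.1 and 9.63 CPM (-4.25, SE 0.58, adjusted p = 3.53e-05; -5.30 without day 21 replicate B). In both lines replicate B of day 21 was the highest of its group, and day 7 and day 21 did not overlap.

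HORVU6Hr1G016890, the member with the widest line difference, also had the largest fall in 10_11 by the same rule, -5.97 from day 7 to day 21 (SE 1.11, edgeR adjusted p = 0.00106; -7.60 without day 21 replicate B). Karl had 7 counts of it in all at day 7 and 0 at day 21, at least 7.50-fold lower, which was not called. Its neighbour HORVU6Hr1G016880 also fell in 10_11 and was not called in Karl.

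Calls with age among the 16 members called between the lines depended on the library labelled replicate C. With all libraries, HORVU6Hr1G026370 and HORVU6Hr1G035370 rose from day 7 to day 21 in both lines and HORVU6Hr1G019760 fell in both. HORVU6Hr1G016880 and HORVU6Hr1G016890 fell in 10_11 alone. In Karl alone HORVU6Hr1G035640 rose and HORVU6Hr1G018610 fell, and the other 9 were called in neither line. Without replicate C 5 of the 16 were called in neither line. HORVU6Hr1G018030 and HORVU6Hr1G018520 then also fell in 10_11 (edgeR adjusted p = 0.00463 and 0.0472), HORVU6Hr1G028590 rose in 10_11 (0.000684), and HORVU6Hr1G034760 was called in both lines as given above.

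The 12 members called in 10_11 from day 7 to day 14 included HORVU6Hr1G019380 and HORVU6Hr1G033350, named after their values were seen. Without the library labelled replicate C neither was called over that interval (edgeR adjusted p = 0.15 and 0.0571). HORVU6Hr1G019380 had 30.3, 57.0 and 54.9 CPM at day 7, 133, 95.6 and 177 CPM at day 14 (177 CPM in the library labelled replicate C) and 204, 66.3 and 183 CPM at day 21. In Karl it had 57.0, 40.6 and 52.7 CPM, then 104, 139 and 114 CPM, then 154, 151 and 198 CPM. From day 7 to day 21 it rose by 1.73 in Karl (SE 0.35, edgeR adjusted p = 0.00216) and by 1.67 in 10_11 (SE 0.37, adjusted p = 0.00222), and the lines' levels overlapped on each day.

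HORVU6Hr1G033350 was at 0, 1.27 and 0 CPM in 10_11 at day 7, 11.1, 7.02 and 11.0 CPM at day 14 and 21.1, 17.0 and 20.5 CPM at day 21. In Karl it went from 1.36, 0 and 3.10 CPM to 9.38, 12.9 and 11.6 CPM at day 21. Both lines rose, by 2.81 in Karl (SE 0.61, edgeR adjusted p = 0.00335) and by a fitted 4.79 in 10_11 (SE 0.75, adjusted p = 0.000121), where day 7 held 1 count and the value depends on the prior count.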

How the data were processed

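Flag leaf RNA of 2 lines at 3 days was measured by MARS-seq in 18 libraries, 3 per group, each a pool of leaves per the labels' protocols. Groups follow the sample titles. P-values measure the spread between these pools. The authors deposited raw whole-number counts per gene, per the file headers, and 36 per-sample columns of normalized and regularized values that were not used. The submitters' processing notes name bcl2fastq, cutadapt, STAR 2.4.2a, HTSeq and DESeq2. Not given in the sources used here are the genome build, the strand setting and whether molecular identifiers were collapsed, so reads of overlapping genes or near-identical copies cannot be told apart and counting intervals cover counting error only. Of the identifiers, 0 matched the reference gene table, so no names, coordinates or sequences are given.

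Tests used edgeR 4.0.16 (R 4.3.3) on the counts as deposited: filterByExpr by group (9973 genes kept), TMM scaling, and two-sided quasi-likelihood tests with 1 mean per line and day (12 residual degrees of freedom), adjusted by Benjamini-Hochberg over all tested genes at 0.05. The fit was tried on simulated counts with known line differences only. Changes with age and differences of changes were not covered by it. The SE is the log2 fold change over the square root of F. Where a group had 0 counts, its sum was set to 3 counts for a lower bound of the fold, and ratios against 1 to 3 counts have an exact binomial 95% interval. Alternatives were DESeq2 1.42.0, its size factors in edgeR, no filter, thinned counts, the compared groups alone, a replicate block, a fold of at least 2 and leaving out each library. Named were members called between the lines, the 3 largest rises and falls per line from day 7 to day 21 (at least 20 CPM in the higher group, days not overlapping), members called for the difference of changes, the 5 most abundant members, members with 0 counts in 1 line and at least 5 CPM in the other (none was found) and the members at the edges. Others are said to be chosen after their values were seen. The members and lists were chosen with earlier results of these data known.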

Additional observations from a re-analysis of the deposited data

Results flagged for a closer look

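HORVU6Hr1G024230 is listed here because the lines changed differently from day 7 to day 14. The difference of the 2 log2 fold changes, 10_11 less Karl, was 13.91 (edgeR adjusted p = 0.042). Its level in 10_11 at day 14 came mostly from replicate A, at 110 CPM against 1.08 and 0.787 CPM, and without that library the difference was 8.60 with an adjusted p of 0.611.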

How the results depend on the processing

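Counts of called members depended more on the setting for single days than for the average over days. The counts below stand without the shares of all genes called under the same setting, so they describe the members alone. The number of genes tested also differed between settings. Leaving out 1 library gave 0 to 10 members at day 7, 0 to 13 at day 14, 3 to 17 at day 21 and 12 to 19 on average between the lines. For age it gave 12 to 29, 0 to 4 and 35 to 54 in Karl (day 7 to day 14, day 14 to day 21, day 7 to day 21), 1 to 7, 26 to 45 and 45 to 69 in 10_11, and 0 to 1 for the difference of changes from day 7 to day 14. DESeq2 called 8, 8 and 15 members between the lines at day 7, day 14 and day 21, 5 in Karl from day 14 to day 21, and 3 and 1 for the difference of changes from day 14 to day 21 and from day 7 to day 21. Without a filter 2 were called at day 7 and 0 in Karl from day 14 to day 21. The libraries of the compared groups alone gave 9 at day 7, 0 at day 14, 1 in Karl and 23 in 10_11 from day 14 to day 21, and 0 and 1 for the difference of changes from day 7 to day 14 and from day 7 to day 21. Counts thinned to 353982 per library, which leave 5373 genes tested, gave 3, 0, 5 and 9 between the lines (day 7, day 14, day 21, average), 12, 0 and 30 in Karl over the 3 intervals, 29 in 10_11 from day 14 to day 21 and 2 for the difference of changes from day 7 to day 14. A fold of at least 2 left 33 of 52 in 10_11 from day 14 to day 21. With a replicate block 5, 10 and 13 members were called between the lines at day 7, day 14 and day 21. Same-numbered samples of the lines did not deviate together on each day (correlations of deviations 0.104, -0.0794 and -0.105 at day 7, 0.0884, 0.247 and 0.0084 at day 14, -0.155, 0.304 and 0.324 at day 21), so the numbers were not taken as pairs. Of the named members, HORVU6Hr1G026280, not called in Karl from day 7 to day 21 (0.04 on the log2 scale), was at -0.09 without Karl day 21 replicate B, at -0.04 without Karl day 7 replicate 2 and at -0.00348 with thinned counts, also not called. No other named value changed sign under an alternative that was run. Of their values under alternatives, 762 stayed on the same side of the threshold, 87 lost a call and 4 gained one. The causes were not tested. Minimum totals of 90 and 360 counts would leave 286 and 163 members. The day 7 libraries, with the lowest totals, limit calls of low members.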
